A study of Mus musculus with 14 samples.

Results

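MicroRNAs of the cluster that lies within the chloride channel gene Clcn5 were described in small extracellular vesicles from mouse neutrophils. The members were the 9 mature names mmu-miR-188-5p, mmu-miR-362-5p, mmu-miR-362-3p, mmu-miR-500-3p, mmu-miR-501-5p, mmu-miR-501-3p, mmu-miR-532-5p, mmu-miR-532-3p and mmu-miR-660-5p (the prefix mmu- is left out from here on), chosen by name and not by their values. Of these, 8 had a column among the 1695 mature mouse names counted, and miR-660-5p was not analysed here. The neutrophils were Ly6G-positive bone marrow cells of wild-type female BALB/c mice, kept for 48 h with DMSO, the solvent (7 libraries), or with 10 µM 27-hydroxycholesterol (27HC), a cholesterol metabolite (7 libraries). The age of the mice is not given, no library of untreated cells was used, and the vesicles were taken with a commercial kit. The labels do not say whether a library stands for 1 animal or a pool, or that libraries came from separate cultures, so p-values measure the spread between these libraries, which may be technical. miR-532-5p carried most of the cluster's counts, at 567 ± 107 CPM (counts per 1000000) with DMSO and 435 ± 53.3 CPM with 27HC (SD, n = 7), and most other members were scarce.

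A microRNA hairpin is cut into 2 arms, named 5p and 3p, and the arm that is loaded into an Argonaute protein guides it to messenger RNAs that pair with its seed, bases 2 to 8. Hairpins in an intron of a protein-coding gene can be cut from the same primary transcript, so that their arms may vary together, although each hairpin is processed and each arm decays on its own. Clcn5 encodes ClC-5, a chloride/proton exchanger of endosomes. Of the cluster's miRNAs, miR-532-5p is known as a repressor of Runx3, miR-362-5p of the deubiquitinase Cyld, and miR-188-5p as a regulator of the choice between bone and fat in marrow stromal cells.

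In the GENCODE M21 annotation of GRCm38, 5 miRNA hairpins lie within Clcn5 (chromosome X, 7153810 to 7319358, minus strand). In the direction of transcription these are Mir532 (chrX:7248402-7248497), Mir188 (chrX:7247989-7248056), Mir362 (chrX:7241982-7242046), Mir501 (chrX:7241243-7241351) and Mir500 (chrX:7237683-7237774), all on the minus strand and spread over 10.8 kb. None overlaps an exon of the 5 annotated Clcn5 transcripts, and all lie in 1 stretch without Clcn5 exons (7213011 to 7316658) that 3 of these transcripts span as an intron. Only 345 bases separate Mir532 from Mir188, and 630 bases Mir362 from Mir501. The submitters' processing notes name the build GRCm39 and the count table gives no position, so the coordinates are those of the annotation alone.

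The mature sequences decide how far the names can be told apart, and they are shown 5′ to 3′ with the seed in capitals (RefSeq, GRCm38.p6; matched for 7 of the 9 members). The first pair shares 1 seed, and so does the second, in which miR-500-5p is the arm opposite to the member miR-500-3p.
miR-501-3p: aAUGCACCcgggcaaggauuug
miR-500-3p: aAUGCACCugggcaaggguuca
miR-362-5p: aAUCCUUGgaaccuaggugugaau
miR-500-5p: aAUCCUUGcuaucugggugcuuagu
miR-501-5p: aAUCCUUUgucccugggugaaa
miR-188-5p: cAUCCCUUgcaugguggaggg
miR-362-3p: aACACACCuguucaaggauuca
miR-532-3p: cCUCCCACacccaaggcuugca

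Counted from the 5′ end, miR-501-3p and miR-500-3p differ at 4 of 22 positions, by C9U, A18G, U21C and G22A (the base of miR-501-3p first). All 4 lie outside the seed, and the longest run of bases they share is 8. The rule by which the authors assigned reads to near-identical names is not given in the sources used here, so the split of counts between these 2 names is uncertain. miR-501-5p has a seed of its own, since it differs from miR-362-5p by G8U within it. Seeds outside the cluster were compared only for names in the table with a mature sequence in the same source. Of these, 1 shares the seed of miR-188-5p (miR-7061-3p, mean 8.34 CPM) and 1 that of miR-362-3p (miR-329-3p, mean 6.52 CPM). None of them shares the seed of another member shown.

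Library totals ran from 112914 to 871189 counts, and 3 counts, the limit that a count of 0 allows, correspond to between 4.09 CPM (DMSO replicate 3, the deepest library) and 24.6 CPM (27HC replicate 7), for counting error only. On whole profiles, the first principal component (36.5% of the variance) separated replicates 1 to 4, with scores up to 0.24, from replicates 5 to 7, with scores of at least 4.97, in both treatments. What this split stands for is not stated in the labels. Replicates 5 to 7 were mostly shallower too, with totals of 112914 to 252014 counts against 229324 to 871189 in replicates 1 to 4. The part of depth in differences between the sets was not tested. The neutrophil miRNA miR-223-3p was abundant in all 14 libraries (74070 to 192100 CPM), and the 4 neutrophil and myeloid names summed to 83290 to 216700 CPM with DMSO and 113100 to 149200 CPM with 27HC, with 2 of 4 called lower. The other marker sums, in DMSO and then in 27HC libraries, were 505 to 1062 and 730 to 1126 CPM for 4 erythroid names, 1002 to 2205 and 965 to 2301 CPM for 5 endothelial and stromal names, 2476 to 4587 and 1895 to 3672 CPM for the liver miRNA miR-122-5p, and 141 to 376 and 73.8 to 172 CPM for the lymphoid miR-150-5p, which was called lower. None of these 15 names was at 0 in all libraries, and their part in the results below was not tested. Only 1 of the 4 erythroid names, miR-486a-5p, and 4 of the 5 endothelial and stromal names had enough counts for a test of 27HC.

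Together the 8 members took 3224 counts, 0.0896 ± 0.00991% of the counts in DMSO and 0.0714 ± 0.0127% in 27HC libraries (SD, n = 7). miR-532-5p made up 63.5% of these counts, miR-501-3p 14.3% and miR-532-3p 11%, while the other 5 members held between 1.05% and 4.93% each. The summed level was 896 ± 109 CPM with DMSO and 725 ± 119 CPM with 27HC (SD, n = 7). In DMSO libraries the lowest sum was 711, the median 869 and the highest 1055 CPM, and in 27HC libraries these were 533, 714 and 849 CPM. In 6 of the 7 DMSO libraries the sum was above that of every 27HC library, though DMSO replicate 5, at 849.96 CPM, was above 27HC replicate 2 by less than 1 count is worth there. As a percentage of all counts, without TMM scaling, 4 of the 7 were above every 27HC library. Without miR-532-5p the groups overlapped more, at 328 ± 29.4 CPM and 290 ± 84.4 CPM (SD, n = 7), with no DMSO library above the highest and 4 27HC libraries below the lowest of the other group. Fewer vesicles carrying a miRNA and fewer copies per vesicle cannot be told apart in such libraries.

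A mature miRNA gives 1 read per molecule whatever its length, here 21 to 24 bases, so levels in CPM can be set side by side, apart from differences in ligation and amplification between sequences. By mean CPM over 14 libraries the order was miR-532-5p (501 CPM, rank 95 of the 1695 names), miR-501-3p (120.1 CPM, rank 160), miR-532-3p (93.8 CPM, rank 175), miR-500-3p (41.6 CPM, rank 243), miR-362-3p (20.9 CPM, rank 309), miR-188-5p (11.3 CPM), miR-362-5p (11.1 CPM) and miR-501-5p (10.7 CPM). Neighbours in this order were compared within libraries by an exact sign-flip permutation test (two-sided, n = 14, p-values adjusted over 7 neighbours). miR-532-5p exceeded miR-501-3p in 14 of 14 libraries, by 2.01 ± 0.42 on the log2 scale (SD; adjusted p = 0.000854). The levels of miR-501-3p and miR-532-3p did not differ beyond their spread, with a log2 difference of 0.38 ± 0.69 and miR-501-3p higher in 10 of 14 libraries (adjusted exact p = 0.107). miR-532-3p exceeded miR-500-3p in 12 of 14 libraries by 1.07 ± 0.89 (adjusted exact p = 0.00469), and miR-500-3p exceeded miR-362-3p in 12 of 14 by 0.88 ± 0.83 (adjusted exact p = 0.00513). Among the last 4 names no neighbours differed beyond their spread: the adjusted exact p-values were 0.107, 1 and 0.566. Names farther apart in the order were not compared. Within 7 libraries of 1 treatment, where the smallest unadjusted p is 0.0156, 0 of the 7 neighbours passed after adjustment.

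**Figure D1:**
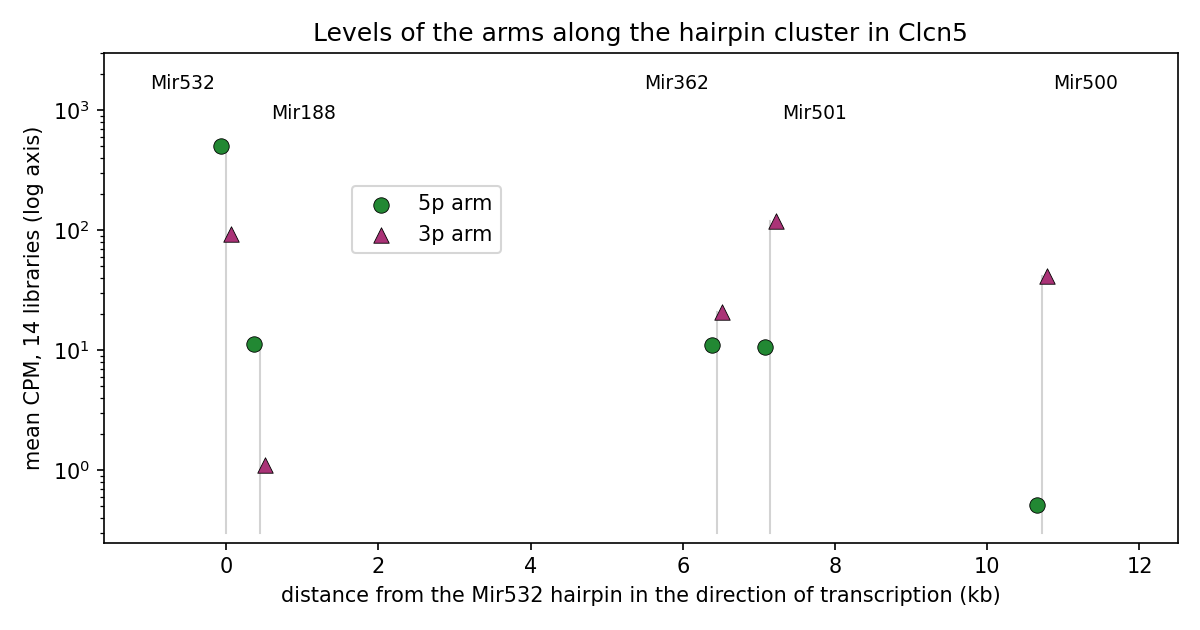
Mean level of each arm (CPM over 14 libraries, log axis) against the distance of its hairpin from Mir532 in kb, in the direction of transcription; circles are 5p arms and triangles 3p arms, drawn slightly to either side of the hairpin. The highest points are miR-532-5p, at 501 CPM, and miR-501-3p, at 120.1 CPM and 7.15 kb, while both arms of Mir188, 0.44 kb from Mir532, are scarce.

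Neighbouring hairpins differed in level. Mir188, which lies 0.44 kb behind Mir532, gave 39 counts over both arms in all 14 libraries, against 2404 counts for Mir532. Mir362 gave 130 counts and Mir501, behind a gap of 630 bases, 496 counts, while Mir500 gave 161 counts. The order of the levels was thus not the order of the hairpins along the transcript.

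**Figure D2:**
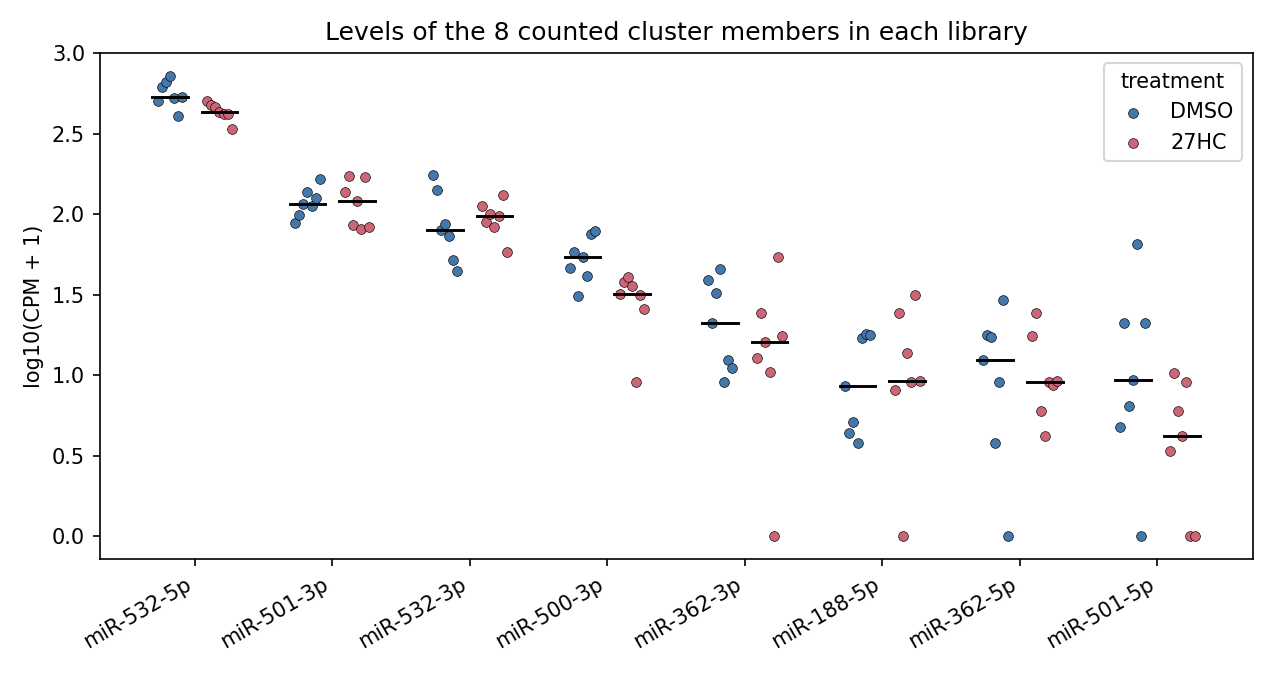
Level of each counted member as log10(CPM + 1), with 1 point per library, DMSO in blue and 27HC in red, and bars at the group medians. Points of both treatments overlap for every member, and the 4 scarcest members have most points near or under the level of 3 counts (4.09 to 24.6 CPM).

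The dominant arm differed between hairpins. The 5p arm held 85.2% of the 2404 counts of miR-532 and was the larger arm in 14 of 14 libraries (74.2% to 92.5% of the counts). The 5p arm also led in miR-188, with 35 counts against 4 for the 3p arm, although 1 library had more counts of the 3p arm. In contrast, the 3p arm held 462 of the 496 counts of miR-501 and 159 of the 161 counts of miR-500, and in both it was the larger arm in all 14 libraries. miR-362 was divided, with 44 counts of the 5p arm and 86 of the 3p arm. Its 3p arm was larger in 9 libraries, its 5p arm in 3, and in 2 the counts were equal.

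Whether 27HC shifted this balance was tested on the log2 ratio of 5p to 3p counts (0.5 added to each), which needs no scaling between libraries, by an exact permutation test (two-sided, 3432 assignments of libraries to treatments, 3 hairpins). For miR-532 the ratio in DMSO libraries was 1.51 at the lowest, 2.91 at the median and 3.57 at the highest, and in 27HC libraries 1.67, 2.19 and 2.47. All 27HC libraries lay within the DMSO range, and DMSO replicates 1 and 2 were the only ones of their group that did not exceed every 27HC library. The means were 2.72 ± 0.68 with DMSO and 2.19 ± 0.27 with 27HC (SD, n = 7). The difference of the means, 27HC minus DMSO, was −0.53 (exact permutation p = 0.0851, adjusted 0.255). DMSO replicate 1, the lowest of its group, decided the call: without it the difference was −0.73, with an adjusted exact p of 0.0175. In replicates 1 to 4 alone the difference was −0.15 (exact permutation p = 0.829). In replicates 5 to 7 alone the difference was −1.03 (exact permutation p = 0.1, the smallest that 3 against 3 can give). For miR-362 the difference was 0.63 (exact permutation p = 0.434, adjusted 0.434) and for miR-501 it was −0.96 (exact permutation p = 0.19, adjusted 0.285), in both on single-digit counts of the scarcer arm in most libraries. These values moved with single libraries: that of miR-362 ran from 0.24 without DMSO replicate 4 to 1.005 without DMSO replicate 6, and that of miR-501 from −1.32 without DMSO replicate 6 to −0.53 without DMSO replicate 5. They also depended on the value added to each count, which weighs more in shallow libraries. With 1 and then 2 added, the difference was 0.50 and 0.41 for miR-362, and −0.70 and −0.43 for miR-501. None of them passed.

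**Figure D3:**
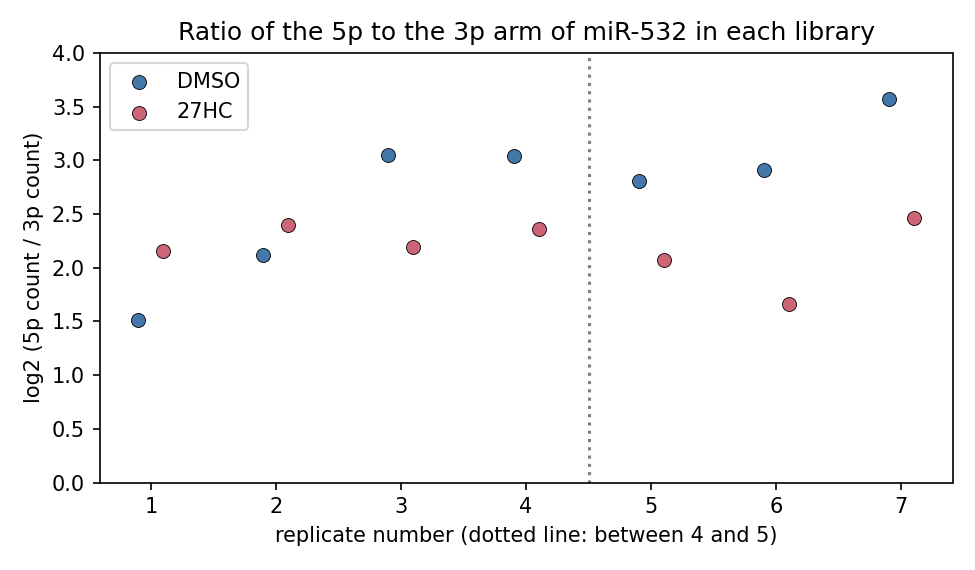
Log2 ratio of the 5p to the 3p count of miR-532 in each library, by replicate number, DMSO in blue and 27HC in red, with a dotted line between replicates 4 and 5. DMSO replicate 1 is the lowest point at 1.51 and DMSO replicate 7 the highest at 3.57, and the 27HC points stay between 1.67 and 2.47.

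The effect of 27HC on single members was tested in the fit over all names by edgeR's quasi-likelihood test. Only 3 of the 8 members, miR-532-5p, miR-532-3p and miR-501-3p, had enough counts for this test. Of these 3, 0 were called by edgeR at an adjusted p under 0.05, where 12.6% of the 239 tested names were called, 8.79% lower and 3.77% higher with 27HC. DESeq2 and limma-voom also called 0 of the 3. An unadjusted p under 0.05 was reached by 1 of the 3 and by 22.2% of the 239, and a log2 fold change under 0 by 1 of the 3 and by 49.4% of the 239. In 0 of the 3 were the treatments without overlap, against 5.44% of the 239. Over all tested names the median log2 fold change stood at 0.010.

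miR-532-5p, the most abundant member, stood at 404 CPM in the lowest, 536 CPM in the median and 721 CPM in the highest DMSO library, and at 336, 430 and 502 CPM in the 27HC libraries. The groups overlapped, but 5 of the 7 DMSO libraries were above the highest 27HC library and 1 27HC library was under the lowest DMSO library. Means were 567 ± 107 CPM and 435 ± 53.3 CPM (SD, n = 7), so that the level with 27HC was 76.6% of that with DMSO. The log2 fold change was −0.38 (SE 0.14, 95% interval −0.69 to −0.081), with an unadjusted p of 0.0161 and an edgeR adjusted p of 0.103, which misses the threshold. The p-value ranked 37 among the 239 names. DMSO replicate 6 was the lowest DMSO library, and without it the difference passed, at −0.47 (edgeR adjusted p = 0.0336). It also passed with the replicate set, a split seen in the same data, as a covariate (−0.38, edgeR adjusted p = 0.0358). Under upper-quartile scaling it passed too (−0.46, edgeR adjusted p = 0.0225), with the median of all tested names at −0.081. In the other 23 of 26 alternatives it did not pass. Without DMSO replicate 4, the highest of its group, it was −0.26 (edgeR adjusted p = 0.309). Without DMSO replicate 3 it was −0.28 (edgeR adjusted p = 0.343). Within replicates 1 to 4 the fold change was −0.36 (SE 0.16) and within replicates 5 to 7 −0.31 (SE 0.22), with edgeR adjusted p-values of 0.158 and 0.605. None of the 3 members was called in either set, where 17.4% and 6.06% of the names tested there were.

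miR-532-3p, the other arm of the same hairpin, ran from 43.6 CPM through a median of 79.1 to 175 CPM in DMSO libraries, and from 57.4 through 96.2 to 130.1 CPM in 27HC libraries. The 27HC libraries all lay inside the DMSO range. Its log2 fold change was 0.031 (SE 0.30, 95% interval −0.61 to 0.67, edgeR adjusted p = 0.98), which leaves room for changes of the size seen in miR-532-5p, and its sign changed under some settings. Its values were −0.24 (SE 0.31) within replicates 1 to 4 and 0.83 (SE 0.46) within replicates 5 to 7. The difference between these sets was 1.12 (SE 0.52), with an unadjusted p of 0.049 and an edgeR adjusted p of 0.479. No name passed in that test of the interaction, and 10% of the 239 names had an unadjusted p under 0.05.

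miR-501-3p ran from 87.3 CPM through a median of 114 to 164 CPM in DMSO libraries and from 80.2 through 120.1 to 172 CPM in 27HC libraries. Of the 27HC libraries, 2 lay above and 3 below all DMSO libraries, so that the spread was wider with 27HC and the centres were close. The log2 fold change was 0.019 (SE 0.23, 95% interval −0.47 to 0.51, edgeR adjusted p = 0.98), again with a sign that depends on the setting. Within replicates 1 to 4 it was 0.303 (SE 0.276) and within replicates 5 to 7 −0.284 (SE 0.375), with edgeR adjusted p-values of 0.486 and 0.826. With the counts of miR-500-3p added to those of miR-501-3p, in case reads of the 2 names were not told apart, the fold change was −0.20 (SE 0.22, edgeR adjusted p = 0.669).

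**Figure D4:**
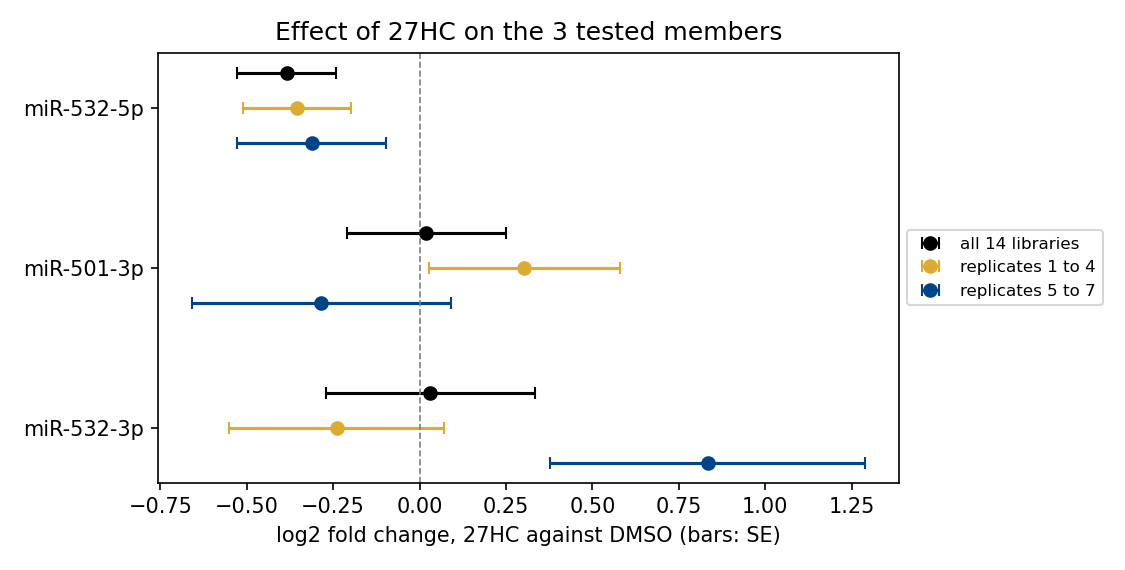
Log2 fold change of 27HC against DMSO for the 3 tested members (points, with bars of 1 SE), in all 14 libraries and within each set of replicates. miR-532-5p is at −0.38, −0.36 and −0.31 in the 3 fits, while miR-532-3p is at −0.24 in replicates 1 to 4 and 0.83 in replicates 5 to 7.

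The remaining 5 members were left out of the test for low counts and were read from a fit without the filter, which called 1.59% of all 1695 names and had 10.7% at an unadjusted p under 0.05. None of the 8 members was called in it. That fit has its own TMM scaling, while the CPM given here use the scaling of the filtered fit. The 3 tested members were lower without the filter: miR-532-5p at −0.489 in place of −0.384, miR-532-3p at −0.099 in place of 0.031, and miR-501-3p at −0.048 in place of 0.019. miR-500-3p had 111 counts in DMSO and 48 in 27HC libraries. It stood at 29.99, 52.9 and 77.1 CPM in the lowest, median and highest DMSO library and at 8.02, 30.8 and 39.9 CPM with 27HC. All but 1 of the DMSO libraries (6 of 7) were above the highest 27HC library, and the exception was DMSO replicate 3, the deepest library. DMSO replicate 5, at 40.1 CPM, exceeded the highest 27HC library by less than 1 count is worth there. Its log2 fold change was −0.84 (SE 0.46, 95% interval −1.74 to 0.062), with an unadjusted p of 0.068 and an edgeR adjusted p of 0.434. When each library was left out in turn the fold change ran from −0.93 to −0.69 and the adjusted p from 0.412 to 0.551.

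miR-501-5p had 28 counts in DMSO and 6 in 27HC libraries, with 0 counts in 1 DMSO and 2 27HC libraries. DMSO libraries ran from 0 CPM through 8.35 to 64.1 CPM and 27HC libraries from 0 through 3.16 to 9.28 CPM. Its log2 fold change without the filter was −1.83 (SE 0.87, unadjusted p = 0.0359, edgeR adjusted p = 0.383). The value rests in part on DMSO replicate 5, with 8 of the 28 counts: without that library it was −1.28 (unadjusted p = 0.175, edgeR adjusted p = 0.586).

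For the last 3 members most values lay near the level of 3 counts. miR-362-3p had 61 counts in DMSO and 25 in 27HC libraries (log2 fold change −0.63, SE 0.59, edgeR adjusted p = 0.623), miR-362-5p had 27 and 17 (−0.27, SE 0.76, edgeR adjusted p = 0.937) and miR-188-5p had 17 and 18 (0.45, SE 0.80, edgeR adjusted p = 0.853). Over libraries they reached at most 53.6, 28.4 and 30.6 CPM. The summed counts are not scaled for depth. By mean CPM the level with 27HC was, in the same order, 79.2%, 85.6% and 133% of that with DMSO. No difference was detected in these names. The opposite arms that are no members were scarcer still, with 4 counts of miR-188-3p and 2 of miR-500-5p in all 14 libraries.

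Summing both arms per hairpin, a setting added after the values were seen, left 2 hairpins with enough counts. Mir532 was at 664 ± 126 CPM with DMSO and 527 ± 70.3 CPM with 27HC (SD, n = 7). For this sum edgeR gave a log2 fold change of −0.33 (SE 0.14, adjusted p = 0.17). Mir501 was at 138 ± 34.6 and 124 ± 41.9 CPM, with a log2 fold change of −0.13 (SE 0.24) and an edgeR adjusted p of 0.83. Neither was called.

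The members were also compared between the sets of replicates, with treatment in the fit. These sets follow a split seen in the same data, so the p-values between them describe that split and do not test a grouping set beforehand. miR-532-5p was at 546 ± 106 CPM in replicates 1 to 4 (SD, n = 8) and 441 ± 77.8 CPM in replicates 5 to 7 (SD, n = 6), a log2 difference of −0.31 (SE 0.12, edgeR adjusted p = 0.0593). miR-532-3p was at 108 ± 33.8 and 75.1 ± 32.7 CPM, a difference of −0.56 (SE 0.29, edgeR adjusted p = 0.141). miR-501-3p was at 119 ± 29.4 and 122 ± 38.4 CPM, a difference of 0.061 (SE 0.23, edgeR adjusted p = 0.869). None of the 3 was called, where 38.1% of the 239 names were, 20.5% higher and 17.6% lower in replicates 5 to 7. In none were the sets without overlap, against 6.69% of the 239. For miR-532-5p the edgeR adjusted p crossed the threshold without DMSO replicate 1 (0.0424), under RLE scaling (0.0449) and without the filter (0.0115, with miR-532-3p at 0.0401). Without the filter the log2 differences of all 3 members were lower, at −0.68 for miR-532-5p, −0.92 for miR-532-3p and −0.32 for miR-501-3p. That fit has its own TMM scaling, and the part of scaling in this shift was not tested. With library totals alone as the scale the difference of miR-532-5p was −0.12 (edgeR adjusted p = 0.555), while the median of all tested names moved from −0.079 to 0.11.

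Co-variation within the cluster was measured on log2 CPM with the mean of each treatment removed, for the 3 pairs of tested members. Pooled over 14 libraries, Pearson's r was 0.38 between both arms of miR-532 (Spearman's rho 0.38), 0.26 between miR-532-5p and miR-501-3p (rho 0.30) and −0.22 between miR-532-3p and miR-501-3p (rho −0.13). None of the 3 passed a permutation test with 100000 resamples (p = 0.186, 0.375 and 0.457 for r, adjusted 0.457 for each; p = 0.181, 0.303 and 0.648 for rho, adjusted 0.455, 0.455 and 0.648). Without the 2 libraries farthest from the median of the first name, r was 0.26, 0.34 and 0.17. Single libraries moved each value, and none passed. Between the arms of miR-532 r was 0.63 without DMSO replicate 1 (adjusted permutation p = 0.0627), 0.25 without 27HC replicate 7 and 0.20 without DMSO replicate 6. For miR-532-5p with miR-501-3p it ran from 0.10 without 27HC replicate 7 to 0.38 without DMSO replicate 6. For miR-532-3p with miR-501-3p it was −0.41 without 27HC replicate 7, −0.38 without 27HC replicate 6, −0.038 without DMSO replicate 7 and −0.031 without DMSO replicate 1. Since the libraries fall into 2 sets, r was also computed within each.

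Within replicates 1 to 4 (n = 8) r was −0.67 between the arms of miR-532 (exact permutation p = 0.0669), 0.57 between miR-532-5p and miR-501-3p (exact permutation p = 0.14) and −0.51 between miR-532-3p and miR-501-3p (exact permutation p = 0.192). Within replicates 5 to 7 (n = 6) the same pairs had r of 0.57, 0.38 and 0.40, with exact permutation p-values of 0.225, 0.49 and 0.419. With the mean of each treatment and set removed, r over 14 libraries was −0.067, 0.47 and −0.051 (adjusted permutation p = 0.863, 0.271 and 0.863). Only the pair of miR-532-5p and miR-501-3p was positive in both sets. The difference in r between the sets was not tested.

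**Figure D5:**
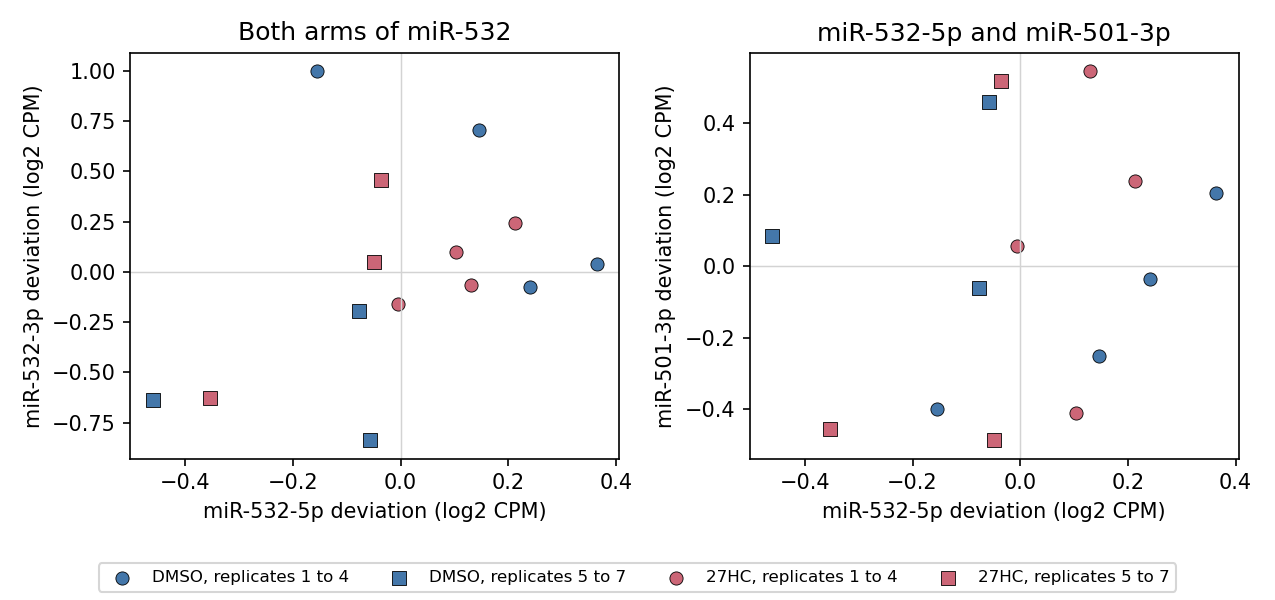
Deviation of log2 CPM from the treatment mean in each library, for miR-532-5p against miR-532-3p (left) and against miR-501-3p (right), with circles for replicates 1 to 4, squares for replicates 5 to 7, DMSO in blue and 27HC in red. The pooled r is 0.38 on the left and 0.26 on the right, and on the left it is −0.67 among circles and 0.57 among squares.

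These values can be read against all 28441 pairs of tested names, whose median r was −0.003 with quartiles of −0.30 and 0.30. Of all pairs, 19.7% had a higher r than the arms of miR-532, 28.1% a higher r than miR-532-5p with miR-501-3p, and 68.7% a higher r than miR-532-3p with miR-501-3p. With treatment and set means removed these shares were 57.1%, 10.2% and 55.3%, so that the order of the first 2 pairs turned around. Counting error limits what such values can show. In DMSO libraries the coefficient of variation of miR-501-3p was 21.4%, where counting alone gives 18.8%, and with 27HC it was 33.1% against 23.1%. For miR-532-3p it was 51.9% against 23.7% with DMSO and 24.1% against 25.3% with 27HC, and for miR-532-5p 18.9% against 8.82% and 12.3% against 11.6%. Thus only miR-532-5p and miR-532-3p in DMSO libraries varied by more than 2 times the spread of counting. miR-500-3p, added after the values were seen, had r of 0.50 with miR-501-3p (permutation p = 0.0672, adjusted over 6 pairs 0.403), and 0.38 with treatment and set means removed; the split of counts between these names is uncertain, as said above.

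For comparison, 2 other clusters were measured in the same way. The 4 tested arms of the miR-106b-25 cluster, which lies in the replication gene Mcm7, had a median r of 0.51 over 6 pairs (−0.060 to 0.69). The 4 tested arms of the miR-191 and miR-425 cluster had a median r of 0.25 (−0.30 to 0.85). The 3 pairs of the Clcn5 cluster had a median r of 0.26 (−0.22 to 0.38). With treatment and set means removed the medians were 0.41 for miR-106b-25 (−0.18 to 0.69), 0.27 for miR-191 and miR-425 (0.16 to 0.48) and −0.051 for the Clcn5 cluster (−0.067 to 0.47). Mean counts per library ran from 25.4 to 146 in the Clcn5 cluster, from 23.7 to 10390 in the miR-106b-25 cluster and from 14.6 to 1205 in the miR-191 and miR-425 cluster, and the difference between clusters was not tested.

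The names outside the cluster that varied most like miR-532-5p over the 14 libraries, with treatment means removed, were miR-450b-5p (r = 0.84), miR-301a-3p, from an intron of Ska2 (r = 0.83), and miR-30d-5p (r = 0.81), among 236 names with a median r of 0.088. With treatment and set means removed these were 0.82, 0.70 and 0.77. Their log2 fold changes with 27HC were −0.0048, −1.24 and 0.018, and only miR-301a-3p was called (edgeR adjusted p = 0.0193). Within replicates 1 to 4 and then 5 to 7, r was 0.953 and 0.649 for miR-450b-5p, 0.635 and 0.703 for miR-301a-3p, and 0.946 and 0.347 for miR-30d-5p. With only treatment means removed, 68 of the 236 names had a higher r to miR-532-5p than its own 3p arm had, and 89 a higher r than miR-501-3p had. With set means removed too, r was −0.067 for the 3p arm and 0.47 for miR-501-3p, so these places hold for the pooled r only.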

How the data were processed

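Raw counts per mature miRNA name and library were deposited by the authors, as whole numbers for 1695 names in 14 libraries, and 0 columns or rows were without a matching label. Per the labels' protocols, library preparation used the QIAseq miRNA kit. The submitters' processing notes name R 4.1.2, edgeR, limma and the build GRCm39, with no role. The aligner, the counting rule and the use of molecular identifiers are not given in the sources used here, so a count may be a read or a molecule.

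Members were found by exact name. Counts were tested with edgeR 4.0.16 in R 4.3.3 (glmQLFit and glmQLFTest, treatment as the only term, TMM scaling, filterByExpr at its defaults, 10 counts per library and 15 in total), with Benjamini-Hochberg adjustment over the 239 names left (99.4% of counts). CPM use the TMM library sizes of this filtered fit, and log2 CPM a prior count of 2. Each SE was taken as the size of the fold change over the root of its F statistic. Alternatives used DESeq2 1.42.0, limma 3.58.1, other scalings and filters, sets of replicates, a replicate block and each library left out. The steps were tested on simulated data. All 42 pairs of libraries within a group differed by more than sampling noise (chi-square per degree of freedom at least 5.65). Members, lists, sets of replicates and tests were chosen with earlier results of these data known; names most like miR-532-5p are the 3 highest r.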

Additional observations from a re-analysis of the deposited data

Results flagged for a closer look

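Of 24 groups of 7 libraries examined (levels of the 8 members, 3 arm ratios and the summed level, in each treatment), 1 had a single library set apart from the rest; by chance 1.2 such groups would be found. miR-501-5p stood at 64.1 CPM in DMSO replicate 5, from 8 counts in the shallowest library, against 20.2 CPM in the next DMSO library. The gap was 0.685 of the range of the group. Leaving that library out moved the unfiltered log2 fold change from −1.83 to −1.28, and it was not called either way.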

How the results depend on the processing

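For 27HC against DMSO, miR-532-5p kept its sign under all 26 alternatives, from −0.49 without the filter to −0.26 without DMSO replicate 4, and 1 member was called in place of 0 under upper-quartile scaling, with the replicate set as a term, and without DMSO replicate 6 (0 to 1 over the libraries left out). miR-501-3p, at 0.019, changed sign under upper-quartile scaling (−0.060), with totals alone (−0.014), without the filter (−0.048), in replicates 5 to 7 (−0.28), merged with miR-500-3p (−0.20) and over the libraries left out (−0.046 to 0.18). miR-532-3p, at 0.031, did so under upper-quartile scaling (−0.055), without the filter (−0.099), in replicates 1 to 4 (−0.24) and over the libraries left out (−0.083 to 0.33). Replicates 5 to 7 alone gave 12 calls among all names in place of 30, with fewer libraries and names tested. Upper-quartile scaling moved the share of calls lower with 27HC from 70% to 81.1%.

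Between the sets of replicates, 91 names were called, against 194 without the filter and 35 when only names averaging 100 counts or more were tested. Of the members 0 were called, against 2 without the filter, 1 under RLE scaling, and 0 to 1 over the libraries left out. miR-501-3p changed sign without the filter (−0.32), where all 3 tested members were lower, and over the libraries left out (−0.040 to 0.20). With totals alone, 17.1% of these calls were lower in replicates 5 to 7 in place of 46.2%. The interaction called 9 names without the filter in place of 0, and that of miR-532-5p changed from 0.098 to −0.11 with totals alone. In the order of levels, 3 of the 7 neighbours differed, and 0 within DMSO or within 27HC libraries, where n is 7. There, even neighbours at the smallest possible p missed the threshold after adjustment. The miR-532 arm ratio ran from −0.73 to −0.39 over the libraries left out. The r between the miR-532 arms became −0.067 with set means removed. Where a cause is not named, the cause was not tested.

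Libraries with the same replicate number correlated by 0.069 to 0.60 in their deviations, over 0.1 in 6 of 7 pairs, and only 2 of 7 numbers were each other's best match, so that the numbers were not taken to pair the libraries. Only treatment means were taken out of these deviations, so the split between the sets of replicates was left in them. Libraries with the same number lie in the same set, so their r holds that split as well as any pairing. Such matches also rest on single libraries and cannot decide whether the libraries are paired. The sample descriptions carry the same consecutive numbers in both treatments, and what these mark is not stated. With the replicate block, 37 names and 0 members were called, and miR-532-5p was at −0.38 (edgeR adjusted p = 0.103); the arm ratios had adjusted exact p-values from 0.164 to 0.391.

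Depth limits the scarce members: miR-188-5p, miR-362-5p and miR-501-5p had a mean of 10.7 to 11.3 CPM, where the limit that a count of 0 allows lay between 4.09 and 24.6 CPM by library.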
